A study of Mus musculus with 20 samples.

Results

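Solute carriers are membrane proteins that move amino acids, transmitters, sugars, nucleotides, lipids and ions across the plasma membrane and the membranes of organelles, and most genes of the superfamily carry a symbol of Slc followed by a family number. The 148 genes described here were chosen by a rule on symbol and read count: a symbol of that form, other than Slc1a2, Slc1a3, Slc4a5 and Slc32a1, and a 3′UTR with 10 or more counts in each of 8 RIP-seq libraries. They are 148 of the 349 such genes in the annotation of the counts, and 148 of the 7639 genes of any kind that reach the same count. RIP-seq sequenced the polyadenylated RNA that came down with a GFP antibody from hippocampal tissue of adult male C57BL/6 mice. The libraries were 2 each of GFP-AGO2 with a sponge for miR-124 (miR124sp, replicates 3 and 4), with a sponge for miR-125 (miR125sp, replicates 1 and 2), with a sponge for miR-292, which served as control (miR292sp, replicates 5 and 6), and of sham-injected mice, whose RNA is the background of the antibody (replicates 7 and 8). Each library pooled the lysate of 2 hippocampi. mRNA-seq measured total hippocampal RNA of 12 single adult C57BL/6 mice, 3 with GFP.miR124sp, 3 with GFP.miR125sp, and 2 sets of 3 with GFP alone, 1 set for each sponge. All vectors were AAV5 and carried a synapsin promoter, which is active in neurons, whereas the lysates and the mRNA came from whole hippocampal tissue.

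In the brain, solute carriers load glutamate, zinc and monoamines into synaptic vesicles, clear transmitters from the cleft, bring glucose, lactate and amino acids into neurons and glia, set intracellular chloride and pH, and exchange metabolites across the inner mitochondrial membrane. Many of them, but not all, run on ion gradients, such as those of sodium and protons, that the P-type and V-type ATPases maintain. AGO2 is the protein of the RNA-induced silencing complex (RISC) that holds a miRNA, and the miRNA pairs through its seed, bases 2 to 8, with a site that lies most often in the 3′UTR of an mRNA. A sponge is a transcript with many binding sites for 1 miRNA family that competes with the natural targets.

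The miRNA of the miR-125 sponge and a pair of other miRNAs that are abundant in the brain are printed with the seed in capitals, as the letters against which the 3′UTRs of the carriers were searched. The mature sequences are those of RefSeq (GRCm38.p6).
mmu-miR-125a-5p: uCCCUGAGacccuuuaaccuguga
mmu-miR-125b-5p: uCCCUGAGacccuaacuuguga
mmu-let-7a-5p: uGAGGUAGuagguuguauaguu
mmu-miR-9-5p: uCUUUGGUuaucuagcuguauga
Both members of the miR-125 family share the seed CCCUGAG. A perfect complement of 7 bases was sought on the transcribed strand of the 3′UTR, as CTCAGGG for miR-125, CTACCTC for let-7 and ACCAAAG for miR-9. CTCAGGG was present in 36 of the 148 carriers (24.3%), against 15.7% of the 8089 3′UTRs past the count threshold whose sequence was read. CTACCTC was present in 24 carriers (16.2%, against 11.2%) and ACCAAAG in 42 (28.4%, against 14.9%). For a match of 8 bases the shares were closer, and for miR-125 turned the other way, with CTCAGGGA in 4.73% of carriers against 5.27%, CTACCTCA in 5.41% against 3.99% and ACCAAAGA in 6.76% against 4.69%. The 3′UTRs of the carriers were longer, with a median of 1570 bases against 1315 over all, and these shares are a description and not a test.

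Sites of some carriers named below that have a match are shown as 30 bases of mRNA sense from NCBIM37 (mm9), with the complement of the seed in capitals. The first 4 pair with the seed of miR-125, the next 2 with that of let-7 and the last 3 with that of miR-9.
Slc39a11, chr11:113107410-113107439, minus strand: ctcaacttcaacacCTCAGGGtcacctcca
Slc43a2, chr11:75390225-75390254, plus strand: agccactccacattCTCAGGGaaagctcct
Slc16a10, chr10:39754465-39754494, minus strand: aaaaaaagtcccttCTCAGGGtatctagca
Slc27a4, chr2:29671927-29671956, plus strand: tgaggagagtgtggCTCAGGGgccaataaa
Slc2a3, chr6:122678385-122678414, minus strand: gaggttggaaggctCTACCTCactacagct
Slc6a8, chrX:70926689-70926718, plus strand: attgcttccaggccCTACCTCctctccttc
Slc44a5, chr3:153933164-153933193, plus strand: cttttgcatcttatACCAAAGccccacact
Slc30a3, chr5:31388986-31389015, minus strand: ccctggtggccaagACCAAAGtgtatatga
Slc36a1, chr11:55048036-55048065, plus strand: caggctggaaagtgACCAAAGtaggtttag
A match is a run of letters in a 3′UTR and does not show that a miRNA bound there. Slc25a1, Slc35f3, Slc44a1 and Slc29a4, which are also named below, have no match for any of these seeds. The seed of miR-124 was not searched for, so no site of the miRNA of that sponge is shown.

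The threshold left out 197 solute carrier genes. Of these, 96 had 0 counts in all 8 libraries, and 8 fell short only in a sham library (Slc10a3, Slc12a7, Slc25a39, Slc30a5, Slc39a5, Slc40a1, Slc46a1 and Slc6a20a). Just inside the threshold were Slc25a44 and Slc35b2, whose lowest library had 10 counts, and just outside were Slc35f2 and Slc9a8 with 9. Several well-known carriers of neurons and glia are not among the 148: Slc12a5, which extrudes chloride, Slc12a2, which imports it, the glycine transporter Slc6a9 and the glutamine carrier Slc38a3 were listed at 0 counts in every RIP library. The symbol does not make every member a transporter, since Slc9a3r1 encodes a scaffold protein and Slc7a6os a protein named for its position opposite Slc7a6. Of the members, 5 had a second 3′UTR row past the threshold (Slc25a23, Slc30a1, Slc36a4, Slc44a1 and Slc4a10), and the row with the most counts stands for the gene unless the second is named.

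The RIP-seq libraries held 2417942 to 5072501 counts in 3′UTRs, of which the carriers took 2.09% to 2.77%, and the mRNA-seq libraries held 6950522 to 27833176 counts, of which they took 1.39% to 1.53%. Levels are given as counts, or as CPM, counts per 1000000 counts. The CPM of carriers in RIP-seq are on TMM library sizes, and the CPM in mRNA and those summed over cell type markers are on the total counts. Changes are log2 fold changes with a standard error (SE). The SE was derived as the absolute change over the square root of the F statistic of edgeR's quasi-likelihood test. A carrier was called at a Benjamini-Hochberg adjusted p below 0.05 in edgeR's quasi-likelihood test over all 3′UTRs or all genes. The labels give the cell type as hippocampal neurons, but markers of astrocytes, oligodendrocytes and microglia were read in the RIP-seq and the mRNA-seq. In bulk samples, fewer cells of a type and less RNA per cell cannot be told apart.

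The first comparison asked which carrier mRNAs came down with GFP-AGO2. Relative enrichment in AGO2 binding was the mean of the miR292sp libraries over the mean of the sham libraries, after scaling to Gapdh and the genes next to it in the order of the ratio. It had a median of 2.42-fold over the 148 carriers and 2.39-fold over all 8203 3′UTRs, and ran from 0.378-fold for Slc22a8, an organic anion transporter, to 39.9-fold for Slc44a5, a choline transporter-like protein. Enrichment was below 1 for 16 carriers, between 1 and 2 for 43, between 2 and 4 for 50, between 4 and 8 for 25, and over 8 for 14. In edgeR, 93 of 148 carriers were called higher with miR292sp than in sham and 1 lower, against 59.4% higher and 0.585% lower of all 3′UTRs, so that the carriers were close to the background in both directions. The direction of most carriers rests on the scaling, because TMM moved the median of all 3′UTRs to -0.11 from 1.26 on the log2 scale and called 32 carriers higher and 33 lower, against 21.6% and 19.1% of all. Above 4-fold, the limit for a target here, were 39 carriers (26.4%), against 27.2% of all 3′UTRs, and 34 of them were above it in both miR292sp libraries. With TMM 10 carriers were above 4-fold (6.76%, against 4.83% of all). Without sham replicate 7 it was 55 (37.2%, against 39.1%), without sham replicate 8 it was 33 (22.3%, against 20.3%), without miR292sp replicate 5 it was 32 (21.6%, against 23.6%) and without miR292sp replicate 6 it was 45 (30.4%, against 31.5%).

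**Figure D1:**
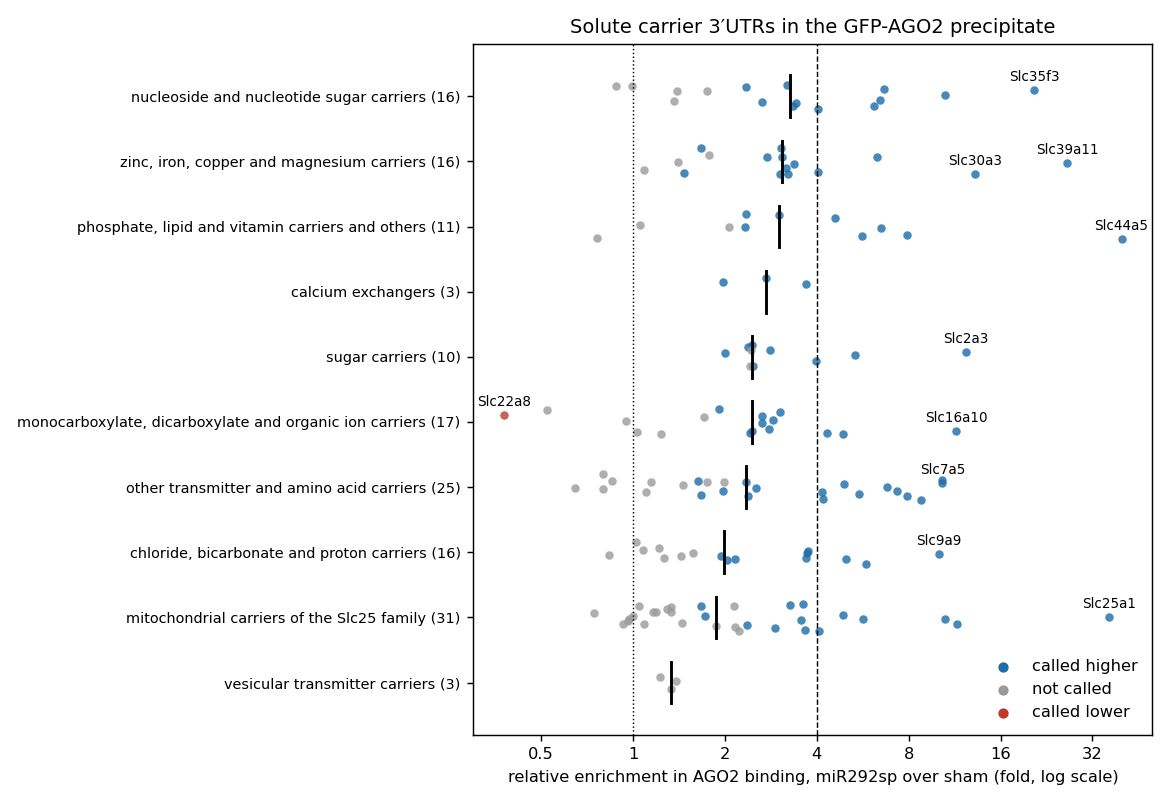
Relative enrichment in AGO2 binding (miR292sp over sham, fold, log axis) of the 148 solute carriers in 10 groups, with the number of genes in parentheses, 1 point for each gene, and a black bar at the group median. Groups follow the family number of the symbol, so a group name does not hold for every member. The dashed line marks 4-fold and the dotted line 1. Medians run from 3.27 in the nucleoside and nucleotide sugar carriers to 1.33 in the vesicular transmitter carriers, and Slc44a5 lies farthest to the right at 39.9.

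The most enriched carriers belonged to different transport groups. Slc44a5 had 8096 and 7406 counts with miR292sp and 339 and 232 in sham, and its miR292sp libraries stood 42.6-fold and 37.1-fold above the sham mean (log2 fold change 5.31, SE 0.26, adjusted p = 4.0e-11). Slc25a1, the mitochondrial citrate carrier that supplies the cytosol with acetyl groups, had 874 and 855 counts with miR292sp and 42 and 28 in sham (5.17, SE 0.30). Slc39a11, a zinc importer of the ZIP family, had 273 and 312 counts with miR292sp and 22 and 11 in sham (4.69, SE 0.53). In each of the 3 the groups did not overlap. Slc35f3, of the family that includes nucleotide sugar carriers, had 598 and 395 counts with miR292sp and 23 and 44 in sham (4.38, SE 0.45).

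Slc30a3, the transporter (ZnT3) that loads zinc into glutamatergic synaptic vesicles, had 1636 and 1401 counts with miR292sp and 184 and 151 in sham (3.72, SE 0.24). Slc2a3, the glucose transporter of neurons (GLUT3), had 3904 and 3300 counts with miR292sp and 456 and 391 in sham (3.62, SE 0.22). Neither carrier's groups overlapped. These 2 neuronal carriers and the 4 above were called higher under each alternative of scaling, filter, test and libraries that was run, TMM included, 10 in all and 9 for Slc39a11. Slc16a10, an aromatic amino acid carrier, Slc25a20, the carnitine and acylcarnitine carrier, and Slc7a5, the light subunit of the large neutral amino acid transporter LAT1, followed at 11.4-fold, 11.5-fold and 10.3-fold, with 13 to 39 counts in a sham library. The smallest changes among those called higher were in the magnesium carrier Slc41a1 (0.56), the amino acid carrier Slc7a6 (0.71), the mitochondrial oxoglutarate carrier Slc25a11 (0.74), the zinc importer Slc39a10 (0.74), Slc7a14 (0.74) and the pyrimidine nucleotide carrier Slc25a36 (0.78), all of which were below 0 with TMM.

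The vesicular carriers of transmitters were near background. None of the 3 vesicular carriers was called: Slc17a7, the main vesicular glutamate transporter of the hippocampus (VGLUT1), was at 1.23-fold, Slc17a6 (VGLUT2) at 1.38-fold and Slc18a2, the vesicular monoamine transporter, at 1.33-fold. Slc17a7 had 5416 and 5860 counts with miR292sp and 8445 and 5102 in sham, so that depth was not low and its groups overlapped (0.30, SE 0.14, adjusted p = 0.071). With TMM, Slc17a7 was called lower at -1.08 and Slc17a6 at -0.90 (adjusted p = 0.032). The plasma membrane GABA transporter Slc6a11 (GAT-3), which is mainly astrocytic, was at 1.10-fold (0.14, SE 0.24) and not called, and with TMM it was called lower at -1.23 (adjusted p = 3.9e-04). Slc1a1, the neuronal glutamate transporter (EAAC1), was at 2.37-fold (1.25, SE 0.17) and called. With TMM, Slc1a1 was not called and lay below 0 (-0.12).

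The other families of amino acid and transmitter carriers, grouped by family number and including lysosomal members and Slc7a6os, had 16 of 25 carriers called higher, and 10 above 4-fold. The highest were Slc7a5, the lysosomal glutamine carrier Slc38a7 (10.3-fold), the creatine transporter Slc6a8 (8.76-fold), the lysosomal proton-coupled amino acid carrier Slc36a1 (7.93-fold) and the neutral amino acid carrier Slc43a2 (7.31-fold). Among the 31 mitochondrial carriers 14 were called higher and 6 were above 4-fold, with a median of 1.88-fold. The abundant ADP/ATP translocases Slc25a4 and Slc25a5 were at 2.37-fold and 1.33-fold, and the phosphate carrier Slc25a3 at 1.09-fold. Of the 16 zinc, iron, copper and magnesium carriers 13 were called higher, of the 16 nucleoside and nucleotide sugar carriers 11, and of the 10 sugar carriers 8. The chloride, bicarbonate and proton carriers had 9 of 16 called higher, the monocarboxylate, dicarboxylate and organic ion carriers 11 of 17. For the phosphate, lipid and vitamin carriers and others it was 8 of 11, and for the calcium exchangers 3 of 3. Of all 3′UTRs 59.4% were called higher and 27.2% were above 4-fold, and no test of one group against another was made.

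At the low end, Slc22a8 had 38 and 19 counts with miR292sp and 100 and 116 in sham (-1.40, SE 0.54, adjusted p = 0.033), and was the only carrier called lower. It was not called with a minimum of 20 counts, which leaves it out, nor without miR292sp replicate 6 or sham replicate 7, and without sham replicate 8 there were 5 calls lower. The organic cation carrier Slc22a4 and the gene Slc7a6os were at 0.524-fold and 0.643-fold and were not called. CPM summed over 8 astrocyte markers were 14951 and 15730 with miR292sp against 62987 and 62604 in sham, with 2 of 7 markers tested called higher and 2 lower. The astrocyte markers include Slc1a2 and Slc1a3, solute carriers that the rule leaves out by name. Summed neuronal markers were 6184 and 6483 with miR292sp against 4761 and 4754 in sham, with 5 of 7 called higher. The part of this difference in the order of the carriers was not tested. Pumps that make ion gradients were read in the same way: 3 of 6 Na+/K+-ATPase genes were called higher and 1 lower, 8 of 14 V-type ATPase genes higher, and 4 of 4 Ca2+-ATPase genes higher. Of all 3′UTRs 59.4% were called higher and 0.585% lower.

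The second comparison asked how binding changed when miR-124 was sponged. With TMM, which takes most 3′UTRs as unchanged, 11 of 148 carriers were called higher with miR124sp than with miR292sp and 6 lower, against 5.1% higher and 3.46% lower of all 3′UTRs. The median change was 0.02 over the carriers and 0.04 over all 3′UTRs. On the scaling to the genes around Gapdh the median of all 3′UTRs moved to -0.97, no carrier was called higher (0.207% of all) and 74 were called lower (50% of all). Directions are therefore given relative to the middle of all 3′UTRs.

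The 6 carriers called lower with miR124sp are carriers of choline, amino acids, creatine, monoamines and zinc, and each was more than 6-fold enriched over sham with miR292sp (6.16-fold to 13.2-fold). Of all 284 3′UTRs called lower, 282 were above 4-fold, with a median of 10.2-fold. Enrichment and change share the miR292sp libraries and are not independent. Slc44a1, a choline transporter (CTL1), had 123 and 82.6 CPM with miR124sp against 206 and 224 CPM with miR292sp, and 78.7 and 62.6 CPM in sham (-1.06, SE 0.26, adjusted p = 0.021). Slc43a2 had 105 and 136 CPM with miR124sp against 246 and 254 CPM with miR292sp (-1.06, SE 0.24, adjusted p = 0.016). Neither carrier's groups overlapped. Relative to sham on the scaling to the genes around Gapdh, Slc44a1 was at 1.86-fold with miR124sp and 7.88-fold with miR292sp, and Slc43a2 at 1.76-fold and 7.31-fold. These values include the shift of all 3′UTRs on that scaling, whose median log2 change with miR124sp was -0.97.

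Slc29a4, a monoamine and nucleoside transporter (PMAT), had 102 and 115 CPM with miR124sp against 222 and 191 CPM with miR292sp (-0.93, SE 0.25). Slc6a8 had 263 and 235 CPM with miR124sp against 439 and 473 CPM with miR292sp (-0.87, SE 0.22). Slc30a3 had 211 and 148 CPM with miR124sp against 339 and 288 CPM with miR292sp (-0.80, SE 0.23). For each of these, and for Slc36a1 with 204 and 154 CPM with miR124sp against 302 and 290 CPM with miR292sp (-0.72, SE 0.22), the 2 libraries of a group lay apart from those of the other. Slc44a1 had a second row, 869 bases of another 3′UTR, which had 17.0 and 16.0 CPM with miR124sp against 5.59 and 3.70 CPM with miR292sp and was called higher (1.82, SE 0.52, adjusted p = 0.040), so that the 2 rows of the gene went opposite ways.

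**Figure D2:**
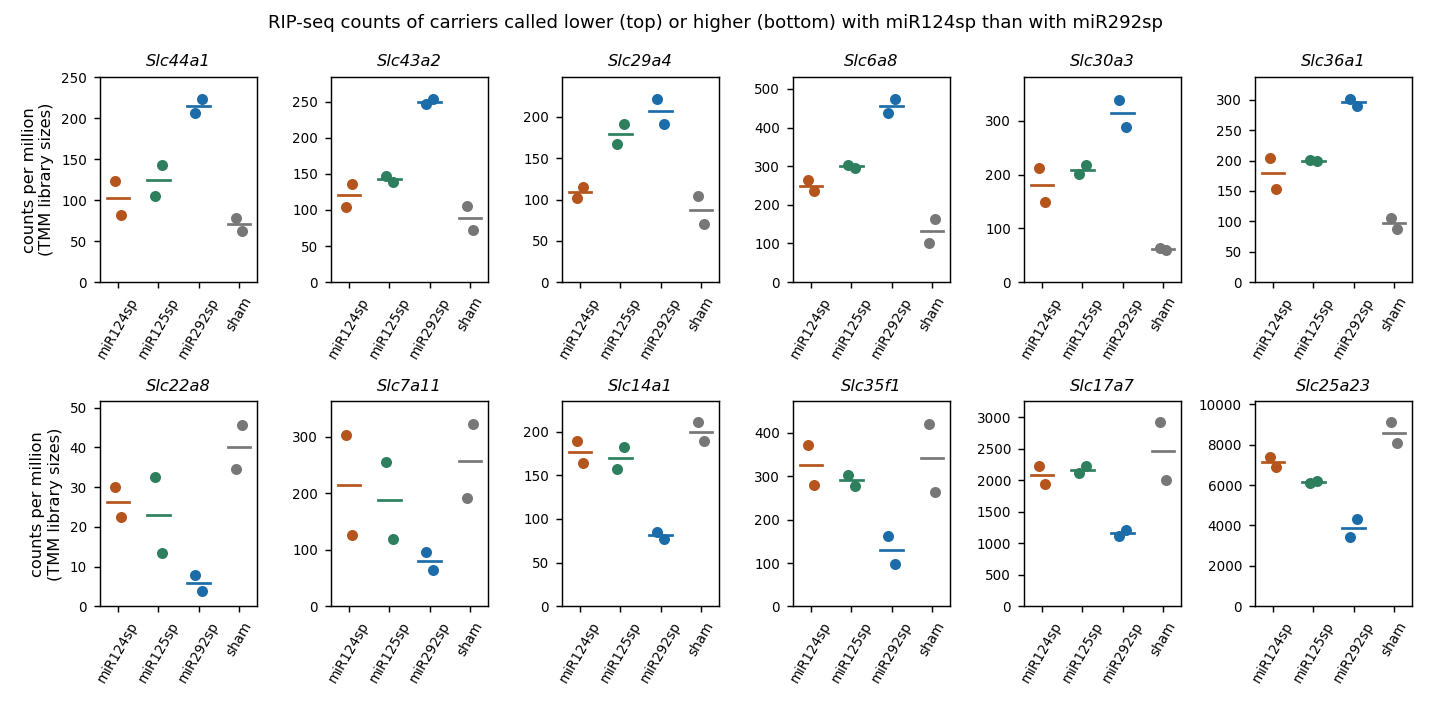
RIP-seq level (CPM on TMM library sizes, axis from 0) of 12 carriers in each library, with miR124sp, miR125sp, miR292sp and sham from left to right, 1 point for each library and a line at the mean of 2. The top row holds the 6 carriers called lower with miR124sp than with miR292sp, where the mean of miR292sp is highest, and the bottom row holds 6 of the 11 called higher, where on this scale the mean of sham is above that of miR124sp. On the scaling to the genes around Gapdh the order is the opposite for 5 of those 6, with miR124sp at 1.03-fold to 1.23-fold of sham, and Slc22a8 stays below sham at 0.827-fold.

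The 11 carriers called higher with miR124sp had low enrichment over sham, between 0.378-fold and 1.47-fold. All 418 3′UTRs called higher lay between 0.157-fold and 2.71-fold. Among those not called, 131 carriers ranged from 0.524-fold to 39.9-fold. The enrichment and the change share the miR292sp libraries, so the 2 measures are not independent. The largest changes were in Slc22a8, with 30.1 and 22.4 CPM with miR124sp against 7.87 and 3.91 CPM with miR292sp (2.15, SE 0.52), and in Slc7a11, the cystine/glutamate exchanger xCT, with 303 and 125.8 CPM with miR124sp against 95.5 and 64.8 CPM with miR292sp (1.42, SE 0.39). Slc35f1, an orphan member of its family, had 373 and 281 CPM with miR124sp against 162 and 97.7 CPM with miR292sp (1.33, SE 0.27).

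Slc14a1, the urea transporter UT-B, had 189 and 164 CPM with miR124sp against 85.5 and 77.6 CPM with miR292sp (1.11, SE 0.23). Slc17a7 had 2229 and 1933 CPM with miR124sp against 1121 and 1205 CPM with miR292sp (0.84, SE 0.17), and 2916 and 2007 CPM in sham. Slc25a23, a mitochondrial ATP-magnesium and phosphate carrier, was the most abundant of the carriers in the precipitate and had 7384 and 6888 CPM with miR124sp against 3436 and 4328 CPM with miR292sp (0.88, SE 0.13, adjusted p = 9.8e-04). In all 6 the groups did not overlap. The other 5 were Slc22a17, a receptor for lipocalin (1.15), the mitochondrial phosphate carrier Slc25a3 (0.96), the UDP-N-acetylglucosamine carrier Slc35a3 (0.83), the sodium-driven chloride/bicarbonate exchanger Slc4a8 (0.76) and the magnesium carrier Slc41a1 (0.63).

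None of the 17 calls held under every alternative. On the scaling to the genes around Gapdh the 11 carriers called higher were no longer called, and 6 of them lay below 0 (Slc17a7, Slc25a23, Slc25a3, Slc35a3, Slc41a1 and Slc4a8). Without miR292sp replicate 5, and likewise without replicate 6, there was 1 call higher and 0 lower. Without miR124sp replicate 3 there were 4 higher and 4 lower, and without replicate 4 there were 8 higher and 1 lower. Astrocyte markers moved in the direction of the 11 carriers called higher: their summed level was 43996 and 43613 CPM with miR124sp against 14951 and 15730 CPM with miR292sp and 62987 and 62604 CPM in sham, and 4 of 7 tested were called higher with miR124sp (median 1.20). The marker Aldh1l1 was too low to be tested. Medians were also above 0 for oligodendrocyte (0.71, with 1 marker called higher and 1 lower), microglial (0.61) and choroid plexus markers (0.79). The 1 endothelial and mural marker tested was called higher (1.005), and the median of neuronal markers was below 0 (-0.26). Over all 3′UTRs below 2-fold enrichment the median was 0.63. Choroid plexus markers summed to 118 and 85.3 CPM with miR124sp against 66.6 and 56.7 CPM with miR292sp. The part of glial or choroid plexus RNA in the calls was not tested.

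Sponging miR-125 gave fewer calls. Of the 148 carriers 4 were called higher with miR125sp than with miR292sp and 1 lower, against 1.18% and 0.232% of all 3′UTRs, and 0 carriers were called by edgeR when any 1 of the 4 libraries was left out, with 17 to 24 at an unadjusted p below 0.05. On the scaling to the genes around Gapdh 0 were called higher (0.219% of all) and 55 lower (38.2% of all). Slc26a4, the anion exchanger pendrin, was the carrier called lower, with 18.9 and 16.7 CPM with miR125sp against 47.0 and 56.2 CPM with miR292sp and 63.9 and 72.0 CPM in sham (-1.53, SE 0.37, adjusted p = 0.046). Its groups did not overlap, and with miR125sp it was below the sham level. Its 3′UTR has no CTCAGGG.

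The 4 called higher were Slc35f1 (1.17, SE 0.26), Slc14a1 (1.06, SE 0.23), Slc17a7 (0.90, SE 0.17) and Slc25a23 (0.66, SE 0.13), all 4 of which were also called higher with miR124sp. Both comparisons use the same miR292sp libraries. On the scaling to the genes around Gapdh, Slc25a23 lay below 0 (-0.12). Slc17a7 had 2119 and 2219 CPM with miR125sp against 1121 and 1205 CPM with miR292sp, without overlap. Summed astrocyte markers were 34651 and 37118 CPM with miR125sp against 14951 and 15730 CPM with miR292sp, with 3 of 7 called higher (median 0.87), and choroid plexus markers were 447 and 353 CPM with miR125sp against 66.6 and 56.7 CPM with miR292sp. Median changes were 0.72 for oligodendrocyte, 0.36 for microglial and -0.08 for neuronal markers, and the 1 endothelial and mural marker was at 0.86. Their part in the result was not tested. In the direct comparison of miR124sp with miR125sp no carrier was called, against 0% higher and 0.0122% lower of all 3′UTRs, while 6 carriers had an unadjusted p below 0.05 in edgeR and DESeq2 called 0 with 7 below that p.

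Carriers with the complement of the miR-125 seed had a median change of -0.07 with miR125sp over miR292sp (36 carriers), and those without it 0.18 (112 carriers). Over all 3′UTRs the medians were -0.09 with a match and 0.05 without. With miR124sp over miR292sp, the same 36 carriers had a median of -0.19 and the 112 of 0.16, so that the lower values of carriers with CTCAGGG were seen with either sponge. Of the carriers whose miR-125 sites are printed above, Slc43a2 changed by -0.81 (SE 0.24, adjusted p = 0.10), Slc39a11 by -0.83 (SE 0.45, adjusted p = 0.36), Slc27a4, a fatty acid transport protein, by -0.97 (SE 0.32, adjusted p = 0.14) and Slc16a10 by 0.18 (SE 0.36, adjusted p = 0.83) with miR125sp. None of the 4 passed the threshold.

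**Figure D3:**
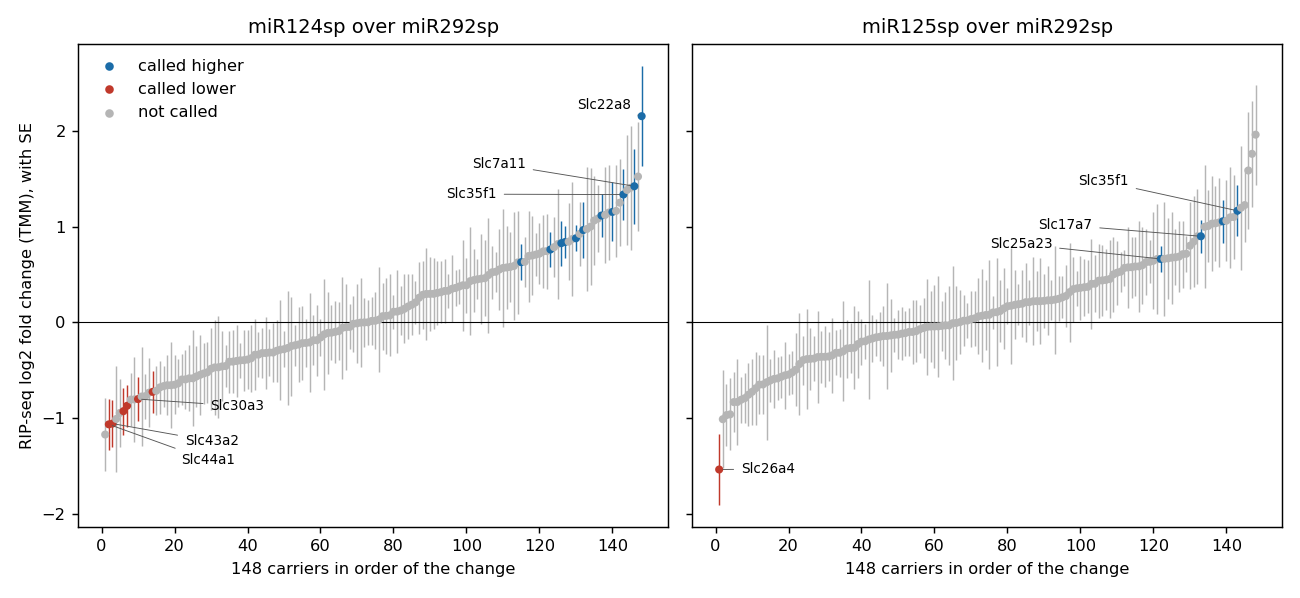
RIP-seq log2 fold change (TMM) of miR124sp over miR292sp (left) and miR125sp over miR292sp (right) of the 148 carriers, ordered by change within each panel, with the SE derived from edgeR's test as vertical lines. Blue points were called higher (11 and 4), red points lower (6 and 1) and grey points were not called.

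The study compared the ranks of targets between the control and a sponge. A target was taken here as lost from RISC where its rank with the sponge was no longer among as many highest ranks as there were targets. Of the 39 carriers above 4-fold with miR292sp, 7 were lost by rank with miR124sp (17.9%, against 21.3% of all targets): Slc29a4, the pyrimidine nucleotide carrier Slc25a33, the lactate and pyruvate carrier Slc16a1, the calcium-regulated mitochondrial carrier Slc25a24, Slc27a4, the neuronal glutamine carrier Slc38a1 and the taurine transporter Slc6a6. With miR125sp 4 were lost (10.3%, against 17.2%): the orphan Slc35f4, Slc27a4, Slc38a1 and the zinc exporter Slc30a1. Slc27a4 and Slc38a1 were lost with both. Slc27a4 had 58.3 and 46.6 CPM with miR124sp and 39.1 and 37.9 CPM with miR125sp, against 69.4 and 81.3 CPM with miR292sp. Slc38a1 had 354 and 249 CPM with miR124sp and 268 and 308 CPM with miR125sp, against 426 and 401 CPM with miR292sp. Each sponge's libraries lay below the miR292sp libraries for both genes, but neither gene was called.

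In total hippocampal mRNA 147 of the 148 carriers had a RefSeq transcript, the exception being Slc35b2. Per kilobase of transcript, the most abundant in the 6 GFP mice were Slc25a4 (754 CPM per kb), Slc17a7 (665), Slc22a17 (337), Slc25a3 (294), Slc25a23 (228) and Slc25a5 (218). Another 17 carriers had too few counts to be tested, Slc6a8, Slc39a11, Slc4a10, Slc4a4 and Slc14a1 among them, and all 17 have 2 or more transcripts. The 31 carriers with several transcripts had a median of 48 counts over the 12 mice and the 116 with 1 transcript 12094, so the levels of carriers with several transcripts are uncertain.

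With miR124sp, 25 of 130 carriers were called higher than in the GFP mice of the same experiment and 11 lower, against 12.6% higher and 10.7% lower of all genes. The median change was 0.10 over the carriers and -0.01 over all genes. Slc17a6 changed most, with 109, 113 and 40.8 CPM in miR124sp mice against 28.1, 14.5 and 29.6 CPM in GFP mice (1.91, SE 0.37, adjusted p = 0.0077). The groups did not overlap, and miR124sp replicate 9 was close to the GFP mice. Slc8a3, a sodium/calcium exchanger (NCX3), had 1.42, 1.10 and 0.842 CPM in miR124sp mice against 0.503, 0.400 and 0.447 CPM in GFP mice (1.35, SE 0.32). Slc38a1 had 5.43, 7.47 and 6.51 CPM in miR124sp mice against 4.10, 3.80 and 4.08 CPM in GFP mice (0.73, SE 0.16), also without overlap. Slc8a3 rests on 8 to 24 counts a mouse in this experiment and Slc38a1 on 73 to 114. Both have several transcripts, as do Slc44a1, Slc16a10 and Slc15a2 among the carriers called, so that the levels of these 5 share the uncertainty above.

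By group of family numbers, 8 of 22 carriers of the non-vesicular amino acid and transmitter families rose and 1 fell, against 12.6% higher and 10.7% lower of all genes. Of the nucleoside and nucleotide sugar carriers 4 of 14 rose, of the monocarboxylate and organic ion carriers 3 of 15, and of the zinc, iron, copper and magnesium carriers 3 of 12. Of the chloride, bicarbonate and proton carriers 2 of 14 rose and 4 fell, and of the phosphate, lipid and vitamin carriers and others 2 of 9 rose and 2 fell. The sugar carriers had 1 of 10 higher, and the calcium exchangers and vesicular carriers 1 of 3 each. Among the amino acid carriers that rose were the glutamine carriers Slc38a1 and Slc38a2 (0.59, SE 0.12), the cationic amino acid carrier Slc7a1 (0.28, SE 0.07), Slc7a5 (0.34, SE 0.09), Slc36a1 (0.37, SE 0.10), the lysosomal arginine sensor Slc38a9 (0.38, SE 0.09), Slc7a14 (0.43, SE 0.11) and Slc1a1 (0.32, SE 0.09). Others were Slc22a23, an orphan of the organic ion carriers (0.71, SE 0.10), Slc35f1 (0.69, SE 0.10), Slc16a10 (0.66, SE 0.16), Slc44a1 (0.57, SE 0.08), Slc4a8 (0.54, SE 0.10), the vitamin C transporter Slc23a2 (0.45, SE 0.10), Slc30a3 (0.39, SE 0.09) and the zinc importer Slc39a9 (0.25, SE 0.07). No mitochondrial carrier of 28 rose, and 4 fell: the glutamate carrier Slc25a18 (-0.56, SE 0.09), Slc25a20 (-0.46, SE 0.14), the ornithine carrier Slc25a15 (-0.30, SE 0.09) and Slc25a33 (-0.27, SE 0.07).

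The others that fell were Slc26a4, with 14.9, 13.5 and 20.2 CPM in miR124sp mice against 27.8, 29.1 and 30.5 CPM in GFP mice (-0.82, SE 0.13), the sodium/proton exchangers Slc9a2 (-0.59, SE 0.15) and Slc9a5 (-0.26, SE 0.08), Slc9a3r1 (-0.45, SE 0.09), the peptide transporter Slc15a2 (-0.43, SE 0.07), Slc6a11 (-0.29, SE 0.07) and the fatty acid transport protein Slc27a1 (-0.29, SE 0.09). Slc25a18 had 73.3, 65.1 and 67.4 CPM in miR124sp mice against 110, 113 and 89.3 CPM in GFP mice, and Slc6a11 had 291, 275 and 277 CPM in miR124sp mice against 348, 373 and 340 CPM in GFP mice. Neither gene's groups overlapped. Slc25a18, Slc6a11 and Slc15a2 are known for their expression in astrocytes, and astrocyte markers summed to 3752 to 3918 CPM in miR124sp mice against 4767 to 5663 CPM in GFP mice, with 5 of 8 called lower. Oligodendrocyte markers summed to 739 to 921 CPM in miR124sp mice against 569 to 620 CPM in GFP mice, with 4 of 7 called higher, and 5 of 8 microglial markers were called lower. Choroid plexus markers summed to 64.5, 84.4 and 2318 CPM in miR124sp mice against 4323, 122 and 1815 CPM in GFP mice, with overlap. Their part in the result was not tested.

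**Figure D4:**
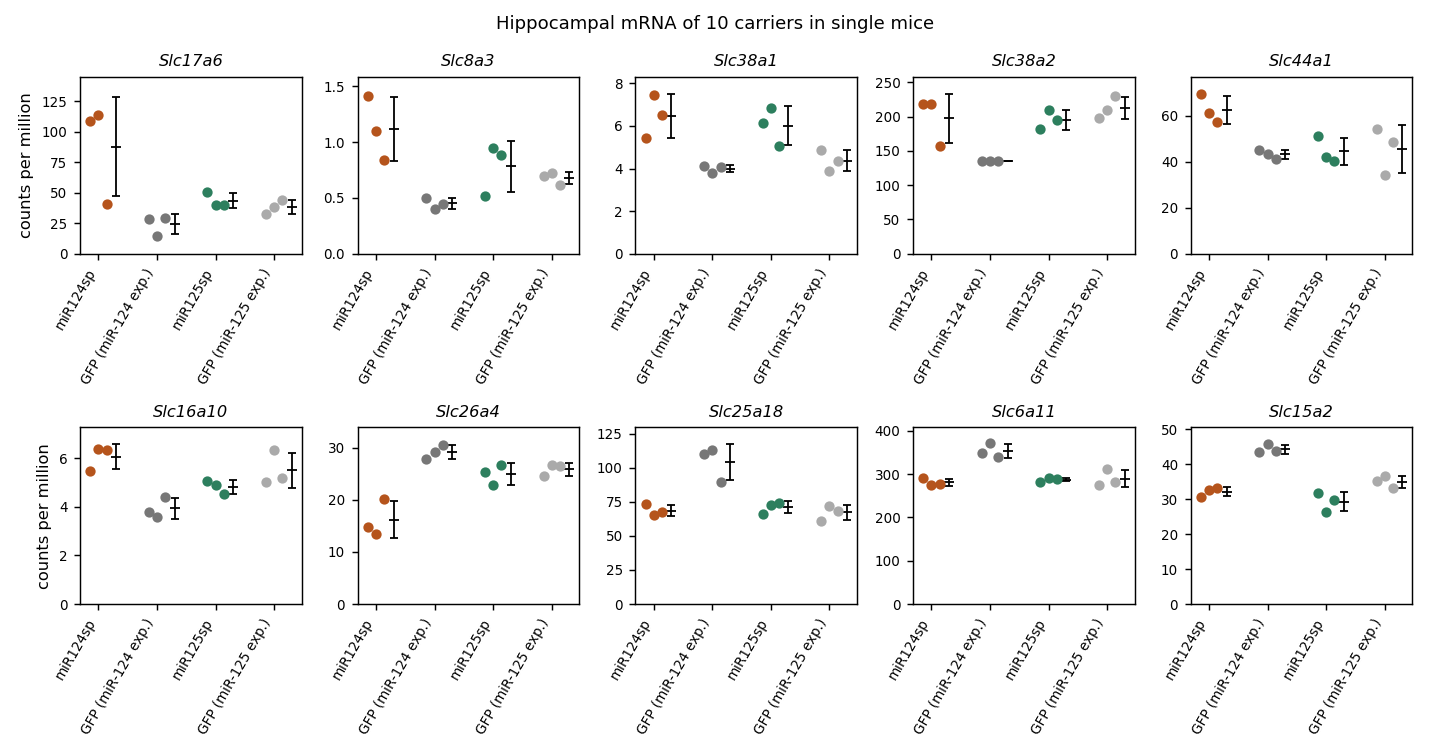
Hippocampal mRNA level (CPM, axis from 0) of 10 carriers in each of the 12 mice, with the miR124sp mice, the GFP mice of their experiment, the miR125sp mice and the GFP mice of theirs from left to right. Points are mice and bars the mean with the SD of 3. In Slc17a6 the miR124sp mice are at 40.8 to 113 and the GFP mice of their experiment at 14.5 to 29.6, and in Slc25a18 only the GFP mice of the miR-124 experiment, at 89.3 to 113, stand above the other groups.

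The calls depended on which GFP mice served as control. Set against the GFP mice of the miR-125 experiment, a comparison added after the data were seen, miR124sp mice had 0 of 129 carriers called higher by edgeR, with 12 at an unadjusted p below 0.05, and 7 called lower, against 0.917% higher and 1.21% lower of all genes. Of the 36 calls only that of Slc26a4 was made again (-0.69, SE 0.14, adjusted p = 0.042), and Slc44a5 (-0.89), the inositol transporter Slc5a3 (-0.72) and Slc2a3 (-0.28) were among the 6 others called lower. Of the 25 carriers called higher, the miR124sp mice did not overlap with their own GFP mice in 24 and with the other GFP mice in 5, and the 2 sets of GFP mice did not overlap with each other in 22. Slc30a3, Slc38a1, Slc44a1 and Slc8a3 were among the 5, and in each of these the miR124sp mice lay above both sets. Slc17a6 had 32.7, 38.1 and 44.2 CPM in the GFP mice of the miR-125 experiment, which overlaps with miR124sp replicate 9 (1.17, SE 0.33, adjusted p = 0.091). Of the 11 called lower, the miR124sp mice did not overlap with their own GFP mice in 11 and with the other GFP mice in 4, and the 2 sets of GFP mice did not overlap in 8. Slc25a18 had 61.1, 72.2 and 68.6 CPM in the other GFP mice, in the range of the miR124sp mice. Summed astrocyte markers were 3735 to 3942 CPM in those mice. Within the miR-124 experiment, leaving out miR124sp replicate 2 left 5 of 131 carriers higher and 4 lower, against 4.07% and 3.93% of all genes. Leaving out GFP replicate 15 left 5 of 130 higher and 4 lower, against 3.61% and 4.02%, so that without either mouse the carriers were close to the background in both directions.

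With miR125sp no carrier of 129 was called in either direction in edgeR, against 0.0554% higher and 0.15% lower of all genes. An unadjusted p below 0.05 was found for 13 carriers, and DESeq2 called 0 higher and 2 lower. The lowest p among those above the GFP mice were those of Slc17a7, with 2250, 2163 and 2338 CPM in miR125sp mice against 2077, 2057 and 2112 CPM in GFP mice (0.13, SE 0.04, adjusted p = 0.20), Slc38a1 (0.46, SE 0.16, adjusted p = 0.27) and Slc3a2, the heavy subunit that LAT1 pairs with (0.39, SE 0.16, adjusted p = 0.34). Among those below were Slc44a5, with 52.4, 60.1 and 52.9 CPM in miR125sp mice against 80.9, 70.8 and 65.3 CPM in GFP mice (-0.37, SE 0.08, adjusted p = 0.12), Slc5a3 (-0.36, SE 0.11, adjusted p = 0.19) and Slc29a4 (-0.42, SE 0.13, adjusted p = 0.20). Slc17a7 and Slc44a5 did not overlap between the groups, but none passed the threshold.

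A call with 1 sponge and not with the other does not show that the effects differ, so the difference was tested as an interaction over all 12 mice. Of 131 carriers the effect of miR124sp was above that of miR125sp for 20 and below it for 3, against 7.42% and 7.06% of all genes. Slc17a6 (1.73), Slc16a10 (0.81), Slc22a23 (0.72), Slc38a2 (0.68), Slc4a8 (0.62) and Slc44a1 (0.59) were highest, and Slc26a4 (-0.79), Slc25a18 (-0.67) and Slc6a11 (-0.31) were those below. The test takes each effect against its own GFP mice, and so holds the difference between the 2 sets of GFP mice described above. A header mark that no source explains was spread unevenly over the groups and was not included in this test.

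The last comparison set the precipitate beside total mRNA, which came from different mice. Of the 6 carriers called lower in the precipitate with miR124sp, 3 were called higher in mRNA (Slc44a1, Slc30a3 and Slc36a1), which is 50% of the 6 and 12.0% of the 25. Of all 284 3′UTRs called lower in the precipitate, 19.4% belonged to genes called higher in mRNA, and 3 of 6 is too few to read against it. Slc43a2 and Slc29a4 were not called in mRNA (0.51, SE 0.24, adjusted p = 0.16, and -0.20, SE 0.22, adjusted p = 0.54) and Slc6a8 could not be tested. Slc44a1 had 69.4, 61.1 and 57.4 CPM in mRNA of miR124sp mice against 45.2, 43.2 and 41.4 CPM in GFP mice, and Slc30a3 had 106, 117 and 96.7 CPM against 82.5, 78.5 and 89.6 CPM. For both the miR124sp mice also lay above the other GFP mice, which had 54.2, 34.1 and 48.7 CPM of Slc44a1 and 90.0, 86.2 and 86.3 CPM of Slc30a3. Against those mice edgeR called neither Slc44a1 (0.44, adjusted p = 0.13) nor Slc30a3 (0.28, adjusted p = 0.092). The second 3′UTR row of Slc44a1 was called higher in the precipitate, and the gene's mRNA level shares the uncertainty of carriers with several transcripts. Slc36a1 had 116, 103 and 94.3 CPM in mRNA of miR124sp mice against 78.0, 90.9 and 81.2 CPM in GFP mice, and the other GFP mice, at 105, 114 and 111 CPM, overlapped with the miR124sp mice.

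Of the 11 carriers called higher in the precipitate with miR124sp, Slc35f1 and Slc4a8 were called higher in mRNA too (18.2% of the 11, 8.0% of the 25), none was called lower, 7 were not called and 2 could not be tested. Over all 418 3′UTRs called higher in the precipitate the share called higher in mRNA was 13.6%. Against the GFP mice of the miR-125 experiment Slc4a8 lay below 0 (-0.15, SE 0.09) and Slc35f1 was at 0.18 (SE 0.10), and neither was called. Slc17a7, for example, was at 0.84 in the precipitate and at 0.16 (SE 0.11) in mRNA. Slc25a23 was at 0.88 in the precipitate and at -0.30 (SE 0.10, adjusted p = 0.060) in mRNA. With miR125sp no carrier called in the precipitate could be set beside a call in mRNA, since there was none.

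**Figure D5:**
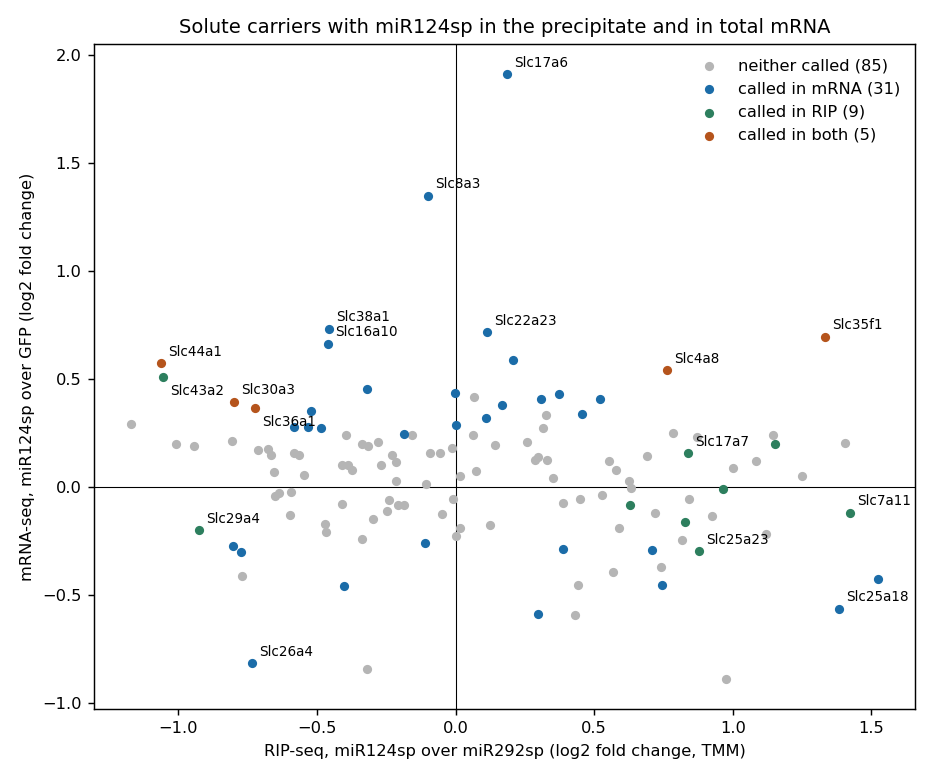
Log2 fold change with miR124sp of the 130 carriers tested in both assays, in the precipitate (over miR292sp, TMM, horizontal) and in total mRNA (over the GFP mice of the same experiment, vertical), 1 point for each gene. Colours mark carriers called in both assays (5), in the precipitate (9), in mRNA (31) or in neither (85). Slc44a1, Slc30a3 and Slc36a1 lie at the upper left, and Slc35f1 and Slc4a8 at the upper right. Slc44a1 is shown by its 3′UTR row with the most counts, and its second row was called higher in the precipitate.

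The pumps were followed through the same comparisons. With miR124sp, 2 of 6 Na+/K+-ATPase genes were called higher and 1 lower in the precipitate, where Atp1b1, a beta subunit, was at -0.78 (SE 0.16), and in mRNA 2 were called higher. Of the V-type ATPase genes 1 of 14 was called higher and 1 lower in the precipitate and 3 of 15 lower in mRNA, and of the Ca2+-ATPase genes 1 of 4 was called lower in the precipitate and 4 of 6 higher in mRNA. Of all 3′UTRs 5.1% were called higher and 3.46% lower in the precipitate, and of all genes 12.6% and 10.7% in mRNA. Summed Ca2+-ATPase mRNA was 2252 to 2534 CPM in miR124sp mice, 1616 to 1814 CPM in their own GFP mice and 2333 to 2671 CPM in the other GFP mice. For the Na+/K+-ATPase genes the sums were 10205 to 11196, 8491 to 9722 and 11061 to 11240 CPM, so neither sum lay above the other GFP mice. The 3′UTRs of 6 carriers overlap a gene on the opposite strand (Slc16a6, Slc25a26, Slc25a35, Slc26a10, Slc2a12 and Slc48a1) and that of Slc5a3 a gene on the same strand, so that their reads cannot be assigned with certainty.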

How the data were processed

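RIP-seq was done on 8 hippocampal lysates and mRNA-seq on total RNA of 12 mice. The values the authors deposited are raw read counts, per Ensembl 3′UTR for RIP-seq and per RefSeq transcript for mRNA-seq. The submitters' processing notes name STAR, edgeR and mm10, the study's methods name mm9, and the counter was not given in the sources used. Strand was not stated, and reads of overlapping genes cannot be told apart. Library totals were 2417942 to 5072501 counts for RIP-seq and 6950522 to 27833176 for mRNA-seq. The members and lists were chosen with earlier results of these data known.

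mRNA counts were summed per symbol. Tests were edgeR's quasi-likelihood test (edgeR 4.0.16, limma 3.58.1, R 4.3.3) with Benjamini-Hochberg adjustment over all 3′UTRs or genes and a threshold of 0.05. All 8 RIP-seq libraries entered 1 fit over 3′UTRs with 10 or more counts in each. miR292sp and sham were scaled to Gapdh and its neighbours in the order of the raw ratio, 50 above and 50 below, and the sponges were compared with TMM. The mRNA of each sponge was fitted with its own GFP mice (6 mice, filterByExpr, TMM), and the interaction on all 12. A target lost by rank was above 4-fold with miR292sp. Alternatives were DESeq2 (1.42.0), other scalings, filters and sample sets, and leaving out each replicate. 3′UTR sequences and coordinates were read from NCBIM37 (mm9) with GENCODE M1. A header mark, which no source explains, was found in 8 of the mRNA-seq libraries. These were all GFP mice of the miR-124 experiment, all miR125sp mice, miR124sp replicate 14 and replicate 4 of the other GFP mice. The mark was tried as a covariate for each sponge against its own GFP mice, but not in the interaction.

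Named carriers were the 6 largest and 6 smallest changes of each direction, the 4 lowest enrichments, the 3 lowest p-values where fewer than 3 were called, and 38 well-known carriers where a result turned on them. Other carriers are named as leaders of a group or as members of a counted set and were chosen after their values were seen. The study's methods describe the 2 RIP-seq libraries of a group as biological replicates. Results of some genes are not reported here. The scripts were tested on simulated data. Figures were drawn with matplotlib 3.10.9 (Python 3.11.15, pandas 2.3.3, numpy 2.4.6).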

Additional observations from a re-analysis of the deposited data

Results flagged for a closer look

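The change of mRNA with miR124sp, set against its own GFP mice, differed from the change with miR125sp, set against its own GFP mice, in the solute carriers below by edgeR's interaction test over the 12 mice. The values are the log2 change with miR124sp minus that with miR125sp. The difference was below 0 for pendrin Slc26a4 (-0.794), the mitochondrial glutamate carrier Slc25a18 (-0.671) and the astrocytic GABA transporter Slc6a11 (-0.309). Among carriers of transmitters, amino acids and metabolites it was above 0 for Slc17a6 (1.73), Slc38a2 (0.684), Slc7a14 (0.524), Slc38a9 (0.502), Slc7a5 (0.372) and the neutral amino acid carrier Slc7a8 (0.318). Among carriers of organic ions, monocarboxylates, choline and vitamin C it was above 0 for Slc16a10 (0.812), Slc22a23 (0.724), Slc44a1 (0.591), Slc23a2 (0.509), the lactate carrier Slc16a7 (0.49) and the fatty acid transport protein Slc27a4 (0.27). Among ion, zinc, sugar and orphan carriers it was above 0 for Slc4a8 (0.622), Slc35f1 (0.543), Slc30a3 (0.425), Slc35e2 (0.374), Slc45a1 (0.365), the zinc transporter of the secretory pathway Slc30a7 (0.301) and Slc39a9 (0.265). Each was singled out because the effects of the 2 sponges differed. The 2 sets of GFP mice differ too, without overlap in 22 of the 25 carriers called higher with miR124sp and in 8 of the 11 called lower, and the part of that difference was not tested. The header mark, which was spread unevenly over the groups, was not included in the interaction test.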

How the results depend on the processing

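No paired analysis was possible because the groups compared share fewer than 2 replicate numbers. Of the named carriers called, 6 of 13 held in every alternative for miR292sp over sham, 0 of 17 for miR124sp and 0 of 5 for miR125sp over miR292sp in the precipitate, and 1 of 23 (Slc26a4) for miR124sp in mRNA. The cause was not tested for any of the changes below.

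For miR292sp over sham, TMM gave 32 carriers higher and 33 lower, and DESeq2 size factors 33 and 33. A minimum of 20 counts gave 0 lower. Leaving out 1 library gave 67 to 106 higher and 0 to 5 lower. Relative enrichment above 4-fold was found for 10 carriers with TMM and for 32 to 55 with 1 library left out. Log2 changes turned below 0 with TMM and with DESeq2 size factors for Slc17a7 (-1.08, -1.06), Slc17a6 (-0.90, -0.88), Slc6a11 (-1.23, -1.21), Slc41a1 (-0.81, -0.79), Slc7a6 (-0.66, -0.63), Slc39a10 (-0.63, -0.61), Slc7a14 (-0.63, -0.60), Slc25a11 (-0.61, -0.59), Slc25a36 (-0.59, -0.57), Slc38a2 (-0.39, -0.36), Slc4a10 (-0.34, -0.32), Slc2a1 (-0.13, -0.11), Slc1a1 (-0.12, -0.09757) and Slc25a4 (-0.10, -0.07511).

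For miR124sp over miR292sp, the scaling to the genes around Gapdh gave 0 higher and 74 lower, no filter on low counts 7 and 12, the DESeq2 Wald test 12 lower and a fit of only the 4 libraries compared 11 lower. Leaving out 1 library gave 1 to 8 higher and 0 to 4 lower. With the scaling to the genes around Gapdh the log2 changes of Slc1a1 (-0.90), Slc25a4 (-0.87), Slc17a6 (-0.85), Slc38a2 (-0.81), Slc4a10 (-0.65), Slc41a1 (-0.38), Slc4a8 (-0.25), Slc35a3 (-0.20), Slc17a7 (-0.17), Slc25a23 (-0.13) and Slc25a3 (-0.02432) turned below 0. For miR125sp over miR292sp the scaling to the genes around Gapdh gave 0 higher and 55 lower, and Slc4a10 (-0.76) and Slc25a23 (-0.12) turned below 0. The fit of 4 libraries gave 9 higher and 5 lower, and the DESeq2 Wald test and no filter 3 lower each. Leaving out 1 library gave 0 higher and 0 lower.

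In mRNA with miR124sp, the header mark as a covariate gave 14 higher and 6 lower, all 12 mice in 1 fit 19 lower, and the GFP mice of the other experiment, added after the data were seen, 0 higher and 7 lower. Against those mice the log2 changes of Slc2a3 (-0.28), Slc35e1 (-0.13), Slc7a1 (-0.13), Slc38a2 (-0.11), Slc1a1 (-0.07827), Slc35b4 (-0.02143), Slc39a9 (-0.006778), Slc7a14 (-0.20), Slc4a8 (-0.15), Slc36a1 (-0.08), Slc38a9 (-0.03) and Slc23a2 (-0.01) turned below 0 and those of Slc25a33 (0.06517) and Slc25a18 (0.02018) above it. Leaving out 1 mouse gave 5 to 30 higher and 4 to 19 lower, with 30 and 19 without miR124sp replicate 9. With miR125sp the header mark gave 1 higher, the DESeq2 Wald test 2 lower, no filter 3 lower, and leaving out 1 mouse 0 to 1 lower (1 without GFP replicate 15). For the difference between the sponges the DESeq2 Wald test gave 5 lower.

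Counts limit the lowest carriers: with 10 to 40 counts in a library, as for Slc25a44, Slc35b2 and sham libraries of Slc39a11, changes carry wide errors, and 17 carriers with several transcripts could not be tested in mRNA.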

Other observations

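Matches to the seed of miR-128, another miRNA that is abundant in neurons, were present in 46 of the 148 carriers (31.1%), against 23.3% of the 8089 3′UTRs read, and matches of 8 bases in 5.41% against 6.07%. Relative enrichment had a median of 2.98-fold in these 46 and 2.19-fold in the other 102, against 2.92-fold and 2.25-fold over all 3′UTRs. For let-7 the medians were 2.86-fold in 24 carriers with a match and 2.37-fold in 124 without, with 37.5% and 24.2% above 4-fold, and over all 3′UTRs the medians were 3.60-fold with a let-7 match and 2.29-fold without. Of all 3′UTRs 44.4% with a let-7 match and 25% without were above 4-fold. For miR-9 the medians were 2.58-fold in 42 carriers with a match and 2.37-fold in 106 without, against 2.95-fold and 2.32-fold over all. For miR-125 they were 3.02-fold in 36 carriers with a match and 2.27-fold in 112 without, against 3.04-fold and 2.29-fold over all. Above 4-fold were 25% of carriers with a miR-125 match and 26.8% without, against 35.8% and 25.6% of all 3′UTRs. The 3′UTRs with a match are a description, and their length was not held equal.

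The change in the precipitate with a sponge moved with enrichment over sham. With miR124sp the median log2 change was 0.71 in the 59 carriers below 2-fold, -0.12 in the 50 between 2-fold and 4-fold and -0.58 in the 39 above 4-fold, against 0.63, -0.07 and -0.56 over all 3′UTRs. With miR125sp the medians were 0.58, -0.01 and -0.38 in the carriers, against 0.49, -0.06 and -0.41 over all 3′UTRs. Both measures use the miR292sp libraries.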
